A study of Mus musculus with 36 samples.

Results

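The genes described here are those of major histocompatibility complex (MHC) class II presentation, 7 of the 54532 genes in the deposited count table. They were taken by gene name, without use of their values: H2-Aa, H2-Ab1, H2-Eb1, H2-DMa, H2-DMb1, Cd74 and Ciita. All 7 were found, and all 7 passed the filter on low counts in every comparison. The libraries came from bone marrow-derived macrophages (BMDMs) of female C57BL/6 mice aged 13 to 17 weeks, made by culturing marrow for 7 days with MCSF, the growth factor that drives macrophage differentiation. KO cells were LysM-Cre;Bmal1 flox/flox, in which Cre under the myeloid Lyz2 (LysM) promoter deletes a floxed part of Bmal1 (gene symbol Arntl), a core transcription factor of the circadian clock. WT cells were from Bmal1 flox/flox littermates that carried no Cre, so both genotypes shared the floxed allele. Cells received DMSO vehicle, 100 µM CCM, 100 nM LPS or LPS and CCM at these doses (LPS+CCM), for 6 h. CCM (Core Circadian Modulator) is a small molecule that binds the PASB domain of BMAL1, and LPS is bacterial lipopolysaccharide, a ligand of Toll-like receptor 4. There were 3 WT and 6 KO libraries for each treatment, 36 in all, each of poly(A) RNA. The sources used here do not say whether libraries with the same number came from the same animal, so p-values measure the spread between these samples.

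MHC class II molecules display peptides from endocytosed proteins to CD4 T cells on dendritic cells, B cells and macrophages. Each is a pair of an alpha and a beta chain, which in C57BL/6 mice is I-A, from H2-Aa and H2-Ab1. H2-Eb1 encodes the beta chain of I-E, whose alpha chain gene is defective in this strain. The invariant chain, Cd74, fills the groove of the new pair and carries it to the endosome, where proteases trim it. H2-DMa and H2-DMb1 form the H2-DM heterodimer, which exchanges the last piece of the invariant chain for antigenic peptide. Ciita, the class II transactivator, binds no DNA itself but is recruited by factors on the X and Y boxes of class II promoters and is the limiting switch of the set. Interferon-gamma is known to induce it in macrophages.

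Gene totals ranged from 13469262 to 28288923 read pairs per library (median 19951421). Ciita had the thinnest evidence, with 46 to 259 counts per library, against 444 or more for each of the other members. Levels are given as counts per 1000000 read pairs counted in genes (CPM), scaled by TMM factors that make the bulk of genes comparable across libraries. The macrophage genes Csf1r, Cd68 and Adgre1 were high, and Csf1r stood between 1296 and 2302 CPM in every library. Fibroblast markers were present too, summing to 295 to 1659 CPM per library, with Col1a1 at 122 to 776 and Dcn at 0.864 to 13.6. Neutrophil markers summed to 381 to 1163 CPM, with Ngp at 97.0 to 274 but Ly6g at 0 to 0.58. Markers of other cell types known to carry class II at a high level were mixed. Of the B cell list, summing to 50.7 to 271 CPM per library, Ms4a1 was at 0 to 0.68 CPM, but Ighm was at 18.2 to 251 CPM, Cd22 at 10.3 to 50.8 and Cd79b at 0.523 to 7.63. Of the dendritic cell list, summing to 5.09 to 15.6 CPM, Flt3 was at 0 to 1.62 CPM, Zbtb46 at 0.32 to 1.62, Cd209a at 0 to 0.54, Xcr1 at 0 to 5.33 and Ccr7 at 0.321 to 9.61. Arntl, the targeted gene, was at 7.27 to 9.76 CPM in WT and 2.97 to 7.74 CPM (median 7.59) in KO vehicle libraries, and the difference was not called (log2 fold change -0.34 ± 0.26 SE, edgeR adjusted p = 1). The KO values include replicate 6, which is set apart below. In its vehicle library, genes of about the length of Arntl (7523 bases) had a median log2 difference of -0.57 from WT. The Arntl count covers the whole gene, exons outside the floxed part included, so it does not check the deletion.

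Before the results, 5 KO libraries must be set apart. In KO replicate 6 under all 4 treatments, and in KO LPS+CCM replicate 5, short transcripts were over-represented and long ones under-represented. The median log2 difference from WT libraries of the same treatment was higher in the 1132 genes with models under 2000 bases than in the 3205 genes over 6000 bases, by 1.67 to 1.99 in KO replicate 6 and by 1.16 in KO LPS+CCM replicate 5. In the other 31 libraries it was lower, 0.65 in KO LPS+CCM replicate 2 and -0.15 to 0.25 in the rest. The gene models of 6 members are short, from 1184 bases for H2-Eb1 to 1874 for H2-Aa, whereas that of Ciita is 9535 bases. With vehicle, Cd74 was 1.27 higher (log2) in KO replicate 6 than in the other KO libraries, against a median of 0.97 over genes of like length. H2-Ab1 was 1.36 higher, against 0.81, H2-Eb1 0.95 higher, against 1.17, and Ciita 0.76 lower, against 0.78 lower. The KO fits are therefore also given without replicate 6, and those with LPS+CCM without replicate 5 of that group where this changes them.

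**Figure D1:**
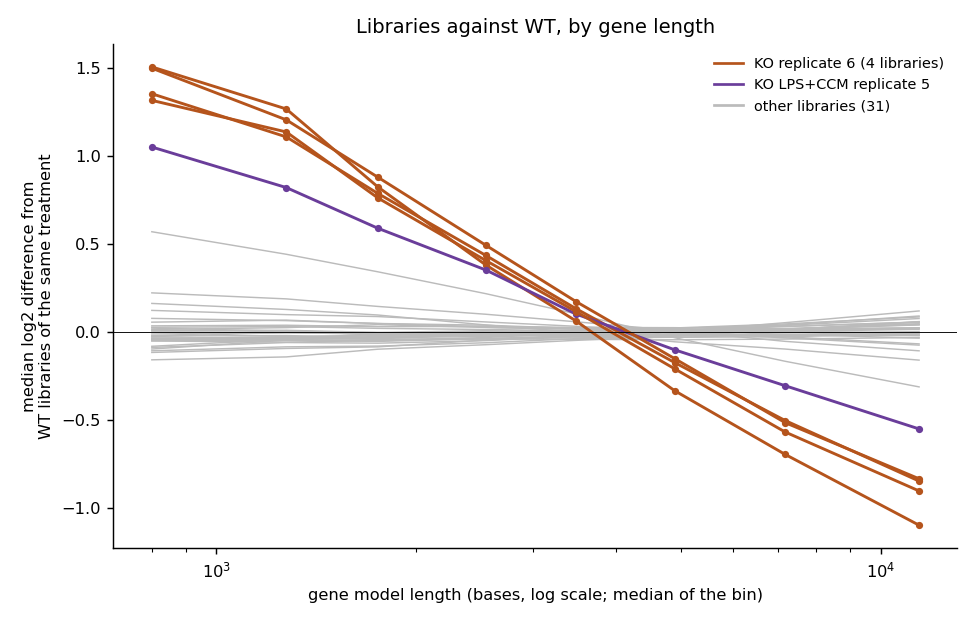
Median log2 difference of each library from the WT libraries of its treatment (vertical axis) against gene model length in bases (log scale, median of each bin), one line per library. The 4 libraries of KO replicate 6 and KO LPS+CCM replicate 5 run from above 0 for short genes to below 0 for long ones, with short minus long gaps of 1.16 to 1.99 where the highest of the others, KO LPS+CCM replicate 2, has 0.65.

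In the coordinates of the deposited table (mm10), 5 members lie together in the H2 region of chromosome 17, with H2-DMa at chr17:34135182-34139101 (plus strand), H2-DMb1 at chr17:34153072-34160230 (plus), H2-Ab1 at chr17:34263209-34269418 (plus), H2-Aa at chr17:34282744-34287827 (minus) and H2-Eb1 at chr17:34305877-34316199 (plus). The other 2 members lie on other chromosomes. Every member is a protein-coding gene. H2-Eb1 overlaps the antisense gene Gm20513, H2-DMa overlaps Brd2 and Gm20493 on the other strand and CR974462.3 on its own, and Ciita overlaps Dexi on the other strand. The sources used here do not say whether counting used strand, so reads shared with an overlapping partner cannot be told apart. H2-DMb1 has a near-identical neighbour, H2-DMb2, between which the counting could split reads.

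RefSeq promoter sequences (GRCm38.p6, the build of the table) matched 4 members by symbol, and 3 of them, H2-Aa, H2-Eb1 and H2-DMb1, start near the start of the gene model used. The H2-Aa and H2-Eb1 stretches upstream of the start are shown because they carry the boxes at which Ciita is recruited, so that the chain genes can be read beside Ciita. Capitals mark the Y box core CCAAT in either orientation, the X1 core AGCAAC and the X2 core TGACG, whose matches on opposite strands overlap in H2-Aa. Each stretch has 120 bases, the first at chr17:34287844-34287963 (minus strand) and the second at chr17:34305727-34305846 (plus strand).
H2-Aa: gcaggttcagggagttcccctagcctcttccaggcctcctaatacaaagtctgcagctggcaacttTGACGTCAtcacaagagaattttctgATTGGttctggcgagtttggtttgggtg
H2-Eb1: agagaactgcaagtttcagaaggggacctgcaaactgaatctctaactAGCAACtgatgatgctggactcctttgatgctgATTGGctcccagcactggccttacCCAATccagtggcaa

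H2-Aa had its Y core 48 bases and its X2 core 74 bases before the start. H2-Eb1 had an X1 core 92 bases before the start, followed by a Y core 59 bases before it, and another Y core at 35 bases. H2-DMb1 had a Y core 61 bases before its RefSeq start. That start lies 119 bases inside the gene model used for the counts, so this match falls within the model. Across all 32851 promoter windows of the same length, searched on both strands, the Y core was present in 37.4%, the X1 core in 14.8% and the X2 core in 20.8%, whereas an X1 core followed 15 to 45 bases downstream by a Y core was present in 0.469%. The E box CACGTG, the core sequence that BMAL1 with CLOCK binds, was in 7.15% of windows, and these letters were in none of the 3 member windows. The motif TTC and GAA spaced by 3 bases (8.3% of windows) and the motif GAAA repeated with 2 bases between (3.44%) were also in none of the 3. These are matches of letters, not measured binding.

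Cd74, at chr18:60803848-60812646 (plus strand), was the most abundant member. Per 1000 bases of gene model, it stood at 433 ± 49.6 CPM (SD, n = 3) in WT vehicle libraries. The 3 chain genes lay close together, H2-Ab1 at 75.9 ± 10.3, H2-Eb1 at 75.7 ± 12.7 and H2-Aa at 72.7 ± 9.26 CPM per 1000 bases, and differed by less than their spread. H2-DMb1 followed at 30.6 ± 2.53 and H2-DMa at 19.0 ± 0.114, which did not overlap. Ciita, at chr16:10480059-10528418 (plus strand), was far below at 0.774 ± 0.0329 CPM per 1000 bases. The message for the unpaired I-E beta chain was thus as abundant per length as those of the I-A pair.

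**Figure D2:**
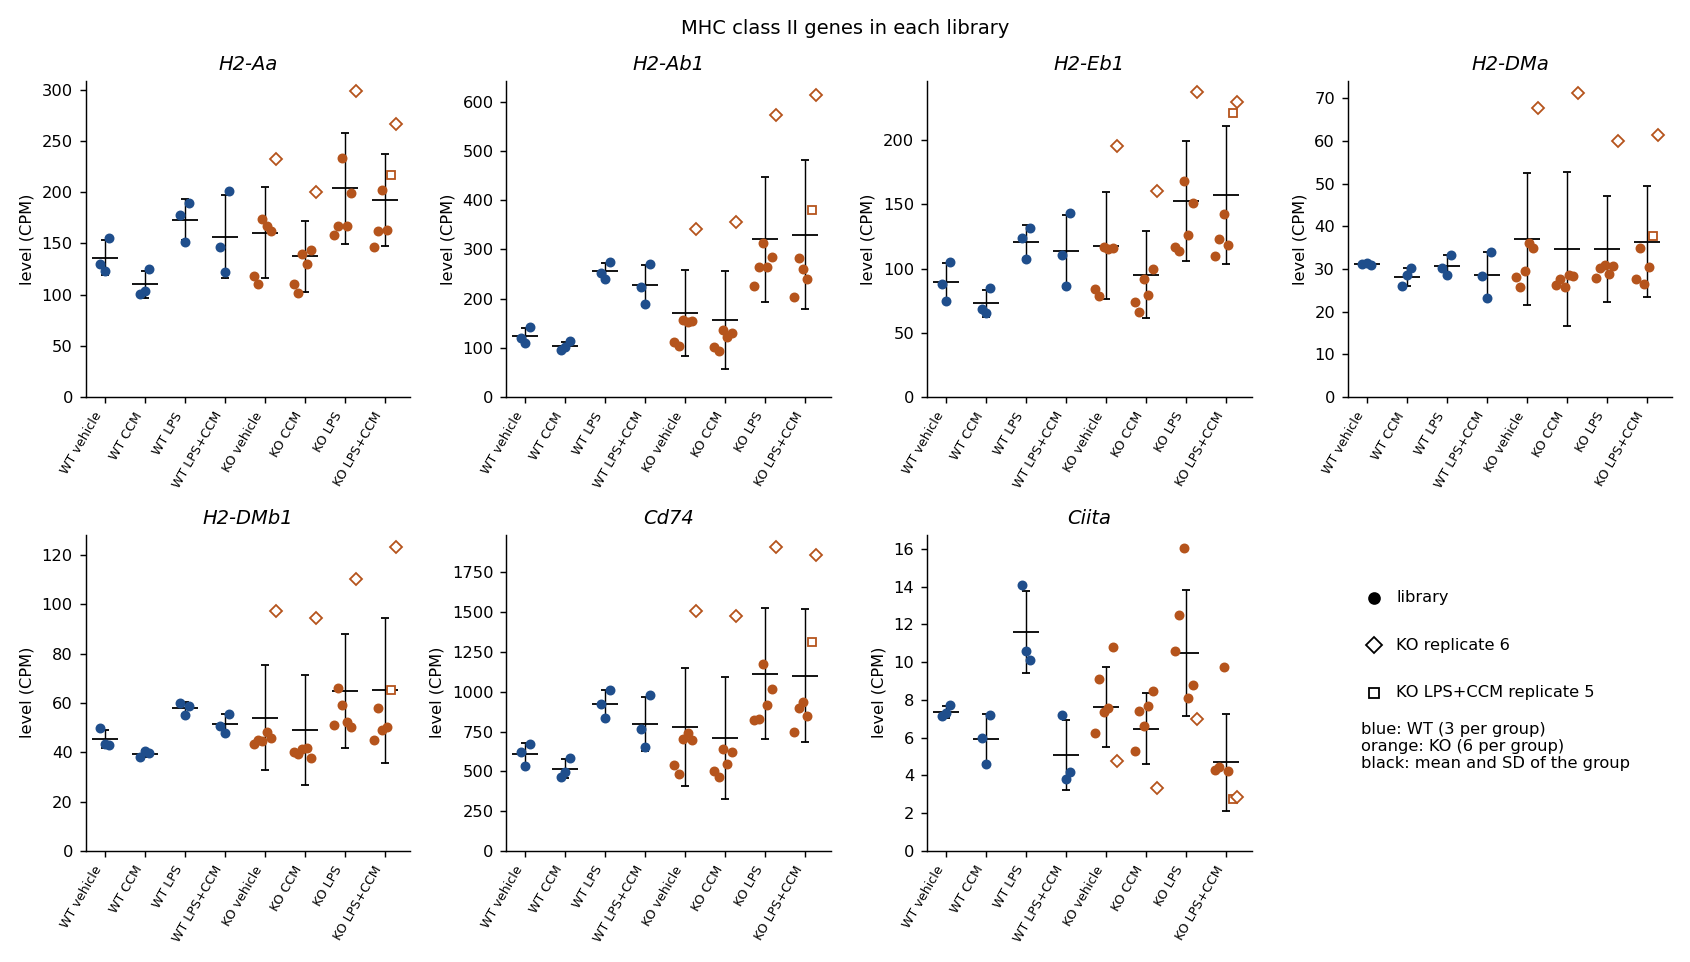
Level of each member in CPM (vertical axis, from 0) in each library, by genotype and treatment, with the mean and SD in black. H2-Ab1, Cd74 and H2-DMb1 sit higher with LPS in WT, H2-DMa does not, Ciita falls back in the LPS+CCM groups, and KO replicate 6 lies above the other KO libraries for the 6 short genes under every treatment.

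The effect of LPS was examined first. In WT cells, 6 of the 7 members rose with LPS, led by H2-Ab1, and H2-DMa was the exception. Of the 14501 genes tested, 30.6% were called higher and 63% were called in either direction, and the median log2 fold change was 0.44 over the members and -0.05 over all genes. In bulk samples, a change in the share of cells of a type and a change in RNA per cell cannot be told apart.

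H2-Ab1, the I-A beta chain, was at 120, 110 and 143 CPM in the WT vehicle libraries and at 252, 241 and 275 CPM with LPS. All 3 LPS libraries were well above all 3 vehicle libraries, and the log2 fold change was 1.05 ± 0.10 (SE, edgeR adjusted p = 7.58e-06). Its partner H2-Aa went from 130, 123 and 156 CPM to 178, 151 and 190 CPM, and the lowest LPS library lay under the highest vehicle library. The log2 fold change of H2-Aa was 0.35 ± 0.11 (adjusted p = 0.0166), and the call was lost without WT vehicle replicate 2 (adjusted p = 0.0516), WT LPS replicate 1 (0.0510) or WT LPS replicate 3 (0.0680).

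H2-Eb1, the I-E beta chain, was at 88.4, 75.2 and 105 CPM with vehicle and at 124, 107 and 132 CPM with LPS. The groups just missed each other, and the log2 fold change was 0.44 ± 0.12 (adjusted p = 0.00995). Cd74, the invariant chain, rose from 622, 535 and 674 CPM to 926, 836 and 1013 CPM. No LPS library overlapped a vehicle library for Cd74, with a log2 fold change of 0.60 ± 0.10 (adjusted p = 0.000367).

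Both H2-DM subunits are needed for the peptide exchanger, and only the beta chain passed the test. H2-DMb1 was at 49.7, 43.4 and 43.1 CPM with vehicle and at 60.1, 55.1 and 58.8 CPM with LPS, without overlap, and its log2 fold change was 0.36 ± 0.07 (adjusted p = 0.00167). H2-DMa was at 31.2, 31.4 and 31.01 CPM with vehicle and at 30.3, 28.6 and 33.4 CPM with LPS. The H2-DMa libraries were interleaved (log2 fold change -0.01 ± 0.07, adjusted p = 0.888), and the difference between the subunits' responses was not tested.

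Ciita, the transactivator, was at 7.12, 7.28 and 7.73 CPM with vehicle and rose to 14.1, 10.6 and 10.1 CPM with LPS. Each LPS library was above each vehicle library, and the log2 fold change was 0.65 ± 0.15 (adjusted p = 0.00334). The scale mattered for the set: with library totals alone the median of all genes fell to -0.47, and 2 members were called, where 73.2% of genes were, H2-Ab1 higher (0.63) and H2-DMa lower (-0.42). Under that scaling H2-Aa was at -0.06, H2-DMb1 at -0.05, H2-Eb1 at 0.03, Cd74 at 0.19 and Ciita at 0.24, none of which was called. The summed level of the dendritic cell markers was 7.24 to 9.04 CPM with vehicle and 11.3 to 13.2 CPM with LPS, although single markers went opposite ways. The B cell markers summed to 78.5 to 182 CPM with vehicle and 50.7 to 204 CPM with LPS. Within the dendritic list Ccr7, which activated macrophages can also express, rose (log2 fold change 2.87) and Clec10a fell (-3.21), and the part of these cells in the result was not tested.

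In KO cells the estimates were similar in size, but the spread was larger and 1 of 7 members was called, where 22.4% of the 13648 genes tested were called higher and 47.1% in either direction. H2-Ab1 ranged from 104 to 342 CPM (median 153) with vehicle and from 225 to 573 CPM (median 274) with LPS. The ranges overlapped through replicate 6 alone, without which they were 104 to 156 and 225 to 312 CPM. The log2 fold change of H2-Ab1 was 0.91 ± 0.32 (adjusted p = 0.0316), and it was no longer called when any one of replicates 1 to 5 was left out (adjusted p 0.0625 to 0.0856).

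Cd74 ranged from 481 to 1504 CPM (median 699) with vehicle and from 823 to 1908 CPM (median 968) with LPS in KO cells. Apart from replicate 6, whose vehicle library was above every LPS library but its own, the LPS values were all above the vehicle values. H2-Aa went from a median of 164 CPM (110 to 232) to 183 CPM (158 to 298), and H2-Eb1 from 116 CPM (78.5 to 195) to 139 CPM (114 to 237). Both chain genes overlapped between the groups. H2-DMb1 had a median of 45.4 CPM (43.3 to 97.4) with vehicle and 55.6 CPM (50.2 to 110) with LPS, H2-DMa one of 32.2 CPM (25.7 to 67.7) and 30.5 CPM (28.0 to 59.96), and Ciita one of 7.48 CPM (4.74 to 10.8) and 9.67 CPM (6.98 to 16.1). All 3 genes overlapped between treatments, H2-DMb1 through replicate 6 alone and H2-DMa and Ciita without it too.

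The KO libraries with the same number correlated at 0.299 to 0.829, above the bar of 0.1 set for use of the replicate block. Libraries with other numbers had a median of 0.173, also above the bar, so passing it does not by itself show pairing. With the block 6 of 7 members were called higher, where 34.1% of genes were. The blocked adjusted p was 1.93e-08 for H2-Ab1, 3.38e-06 for Cd74, 4.01e-05 for H2-Eb1, 0.00031 for H2-Aa, 0.00196 for H2-DMb1 and 0.0239 for Ciita. H2-Aa, H2-Ab1, H2-Eb1, H2-DMb1 and Cd74 were each higher with LPS in 6 of 6 same-numbered pairs, which 33.9% of genes at 1 CPM or more also were. Ciita was higher in 5 of 6 pairs and H2-DMa in 2 of 6. Without replicate 6 and without the block, 4 members were called, where 32.6% of genes were called higher: H2-Ab1, Cd74 (adjusted p = 0.00129), H2-DMb1 (0.00391) and H2-Eb1 (0.0226). No member was called with library totals alone, where 55.2% of genes were.

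**Figure D3:**
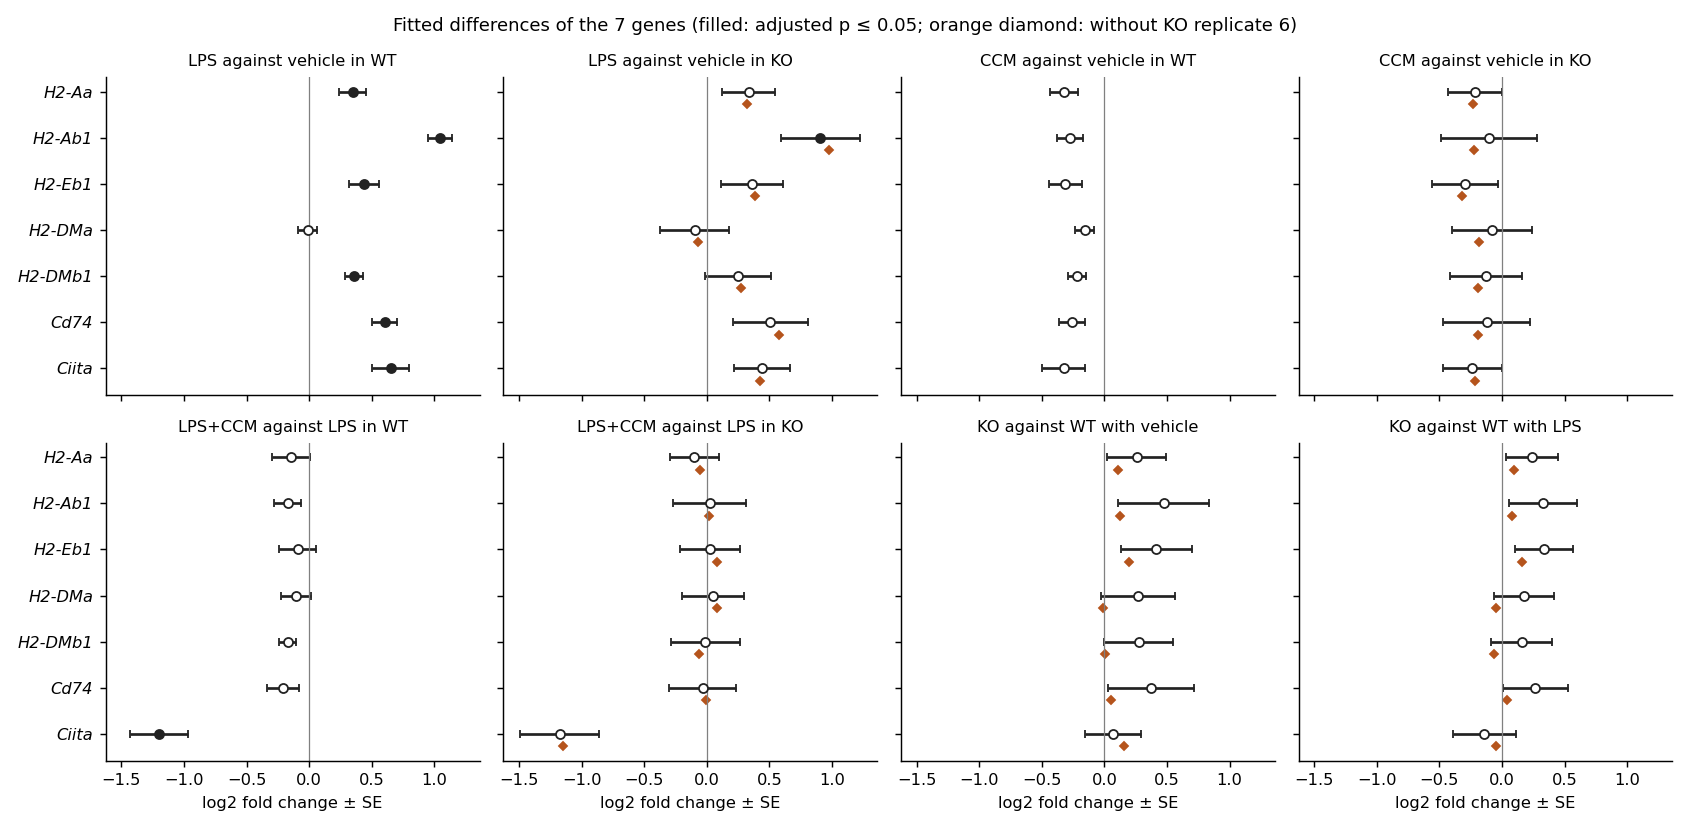
Fitted log2 fold change of each member (horizontal axis) with its standard error as a bar, one panel per comparison, with filled points for an adjusted p of at most 0.05 and orange diamonds for the fit without KO replicate 6. In WT with LPS, 6 members are filled, in KO with LPS H2-Ab1 alone, and with LPS+CCM in WT Ciita alone at -1.20.

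Because the chains of I-A pair one to one, the ratio of their counts within a library was also described. It needs no scaling between libraries and was chosen after the values were seen, so it carries no test. H2-Aa counts divided by H2-Ab1 counts were 1.02 to 1.11 in the 16 libraries without LPS and 0.574 to 0.776 in the 15 with LPS, leaving aside the 5 libraries that stand apart. WT and KO libraries shared this range, as did those with and without CCM, and no library with LPS reached one without. In KO replicate 6 the ratio was 0.434 to 0.680 under all treatments, and in KO LPS+CCM replicate 5 it was 0.571. H2-Ab1 relative to Cd74 moved the other way, from 0.192 to 0.223 without LPS to 0.266 to 0.318 with LPS. H2-Eb1 counts relative to H2-Aa counts ran from 0.613 to 0.717 without LPS and from 0.682 to 0.763 with LPS, so these ranges overlapped.

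**Figure D4:**
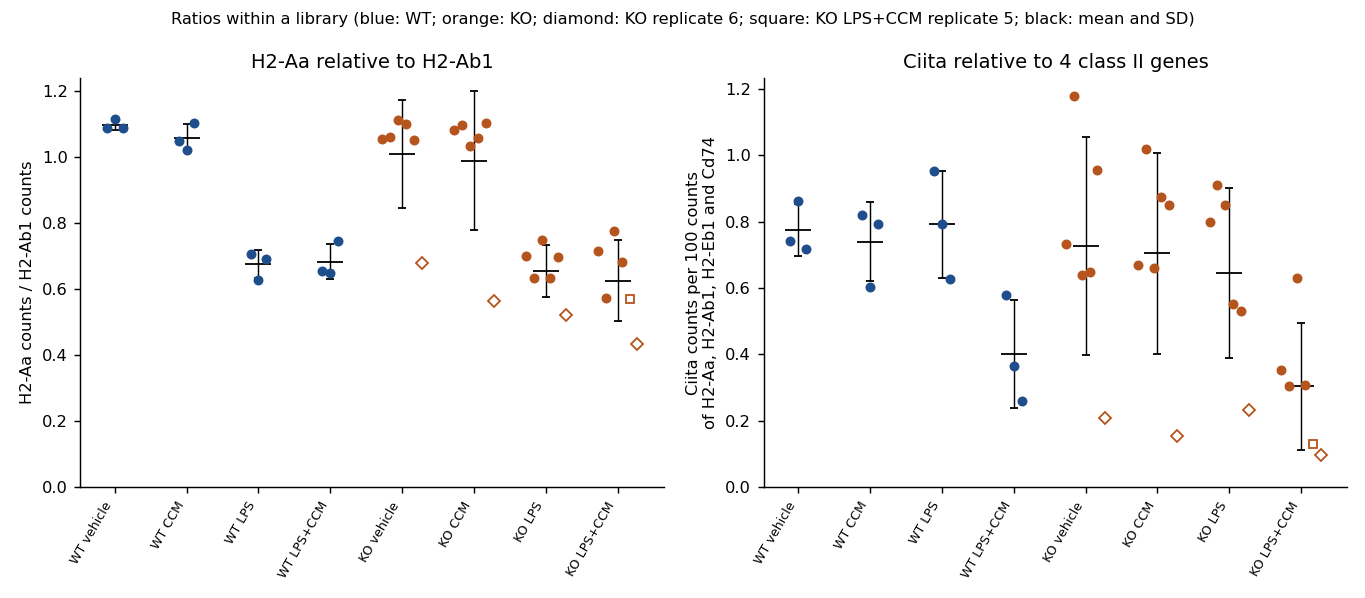
Ratios within a library, with genotype and treatment on the horizontal axis: H2-Aa counts over H2-Ab1 counts (left) and Ciita counts per 100 counts of H2-Aa, H2-Ab1, H2-Eb1 and Cd74 together (right), each from 0, with the mean and SD in black. The left ratio is 1.02 to 1.11 without LPS and at most 0.776 with LPS, apart from KO replicate 6 (diamonds), and the right one is at most 0.578 in the WT LPS+CCM libraries and at most 0.232 in KO replicate 6.

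CCM alone was compared with vehicle next. In WT cells all 7 members were lower with CCM, by 0.16 to 0.32 on the log2 scale, but edgeR called none of them, where 0.057% of the 14024 genes tested were called. At an unadjusted p under 0.05 edgeR listed 5 members, as DESeq2 did, which called none either. Over all genes 1404 had an unadjusted p under 0.05, and DESeq2 called 241 genes where edgeR called 8. Each member was lower in 3 of 3 same-numbered pairs, which 16.7% of genes at 1 CPM or more also were.

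H2-Aa was at 101, 104 and 126 CPM with CCM against 130, 123 and 156 CPM with vehicle in WT cells (log2 fold change -0.32 ± 0.11, adjusted p = 0.386). The highest CCM library overlapped the vehicle range. H2-Ab1 was at 96.2, 101 and 114 CPM (-0.28 ± 0.10, adjusted p = 0.433), and H2-Eb1 at 68.8, 65.4 and 84.7 CPM (-0.31 ± 0.13, adjusted p = 0.489). Cd74 stood at 466, 497 and 583 CPM, overlapping vehicle, with -0.26 ± 0.10 (adjusted p = 0.462). H2-DMb1, at 37.9, 40.5 and 39.9 CPM, and H2-DMa, at 26.0, 28.6 and 30.2 CPM, did not overlap their vehicle values. Their log2 fold changes were -0.22 ± 0.07 for H2-DMb1 (adjusted p = 0.351) and -0.16 ± 0.07 for H2-DMa (adjusted p = 0.526). Ciita was at 6.01, 4.62 and 7.20 CPM, of which the last lay in the vehicle range (-0.32 ± 0.17, adjusted p = 0.573).

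In KO cells no member was called with CCM alone by edgeR or DESeq2, none had an unadjusted p under 0.05 in either, and the share of the 13799 genes called was 0%. DESeq2 called 42 genes there, and 333 had an unadjusted p under 0.05 in edgeR. The log2 fold changes lay between -0.08 for H2-DMa and -0.30 for H2-Eb1, each smaller than or close to its standard error of 0.21 to 0.38. Without replicate 6 the standard errors were 0.05 to 0.16 and the estimates ran from -0.18 for H2-DMa to -0.32 for H2-Eb1, with H2-Ab1 at -0.22 in place of -0.11 and Cd74 at -0.19 in place of -0.12. The lowest adjusted p was then 0.088, for H2-DMb1 (-0.19 ± 0.05). H2-Aa, H2-Eb1, H2-DMb1 and Cd74 were lower with CCM in 6 of 6 pairs, which 6.1% of genes were, H2-Ab1 and Ciita in 5 of 6 and H2-DMa in 4 of 6. The KO pairs correlated at 0.338 to 0.842 here, and libraries with other numbers at a median of 0.223, again above the bar. With the replicate block, H2-Aa (-0.21 ± 0.05, adjusted p = 0.0374) and H2-Eb1 (-0.30 ± 0.05, adjusted p = 0.00966) were called lower, where 1.7% of genes were.

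The comparison of LPS+CCM with LPS asked how levels differed with CCM when LPS was present. A change in the LPS response itself is the interaction given further below. In WT cells 1 of 7 members was called, Ciita, which was lower, where 7.78% of the 13579 genes tested were called lower and 11.9% in either direction. Ciita was at 7.20, 3.82 and 4.16 CPM with LPS+CCM against 14.1, 10.6 and 10.1 CPM with LPS. All 3 LPS+CCM libraries lay below all 3 LPS libraries, and the log2 fold change was -1.20 ± 0.23 (edgeR adjusted p = 0.00793), a fold of 0.436. The call held under all 12 settings run, with an adjusted p of 0.0455 at most.

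The genes that Ciita is known to act on had smaller differences at the same 6 h, and none was called. Cd74 was at 765, 650 and 983 CPM with LPS+CCM (log2 fold change -0.21 ± 0.13, adjusted p = 0.345), H2-Ab1 at 223, 188 and 271 CPM (-0.17 ± 0.11, adjusted p = 0.375) and H2-DMb1 at 50.5, 48.0 and 55.7 CPM (-0.17 ± 0.07, adjusted p = 0.137). All 3 overlapped their LPS values. H2-Aa, at 146, 122 and 202 CPM, H2-Eb1, at 110, 86.8 and 143 CPM, and H2-DMa, at 28.5, 23.2 and 34.1 CPM, overlapped them as well. Their log2 fold changes were -0.14 ± 0.15, -0.09 ± 0.15 and -0.11 ± 0.12 (adjusted p = 0.620, 0.766 and 0.649). Replicate 3 of the LPS+CCM group held the highest value of every member but Ciita, and without it H2-Ab1 (-0.32, adjusted p = 0.0476) and Cd74 (-0.39, adjusted p = 0.0331) were called too.

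The WT libraries of this comparison deviated together by number (0.151 to 0.360), and with the replicate block 4 members were called lower, where 13.3% of genes were. These were Ciita (-1.22 ± 0.13, adjusted p = 2.03e-06), Cd74 (-0.23, adjusted p = 0.0011), H2-Ab1 (-0.18, adjusted p = 0.0113) and H2-DMb1 (-0.17, adjusted p = 0.0192). The split of calls over all genes depended on the scale, with 564 higher and 1057 lower under TMM but 1539 higher and 733 lower with library totals alone. Ciita was lower under both. The summed dendritic markers, of which Ccr7 and Clec10a had gone opposite ways with LPS, were at 7.22 to 9.89 CPM with LPS+CCM. This compares with 11.3 to 13.2 CPM with LPS, and their part in the result was not tested.

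In KO cells Ciita ranged from 2.73 to 9.72 CPM (median 4.24) with LPS+CCM and from 6.98 to 16.1 CPM (median 9.67) with LPS. It was lower in 6 of 6 pairs, which 10.4% of genes were, although replicate 3 at 9.72 CPM lay inside the LPS range. The lowest values, 2.73 CPM in replicate 5 and 2.84 CPM in replicate 6, came from libraries set apart for their length pattern. In that replicate 5 library Ciita was 0.93 lower (log2) than in replicates 1 to 4, against a median of 0.35 lower over genes of like length. The log2 fold change of Ciita was -1.17 ± 0.32 and edgeR did not call it (adjusted p = 0.208). No member was called by edgeR, where 0.112% of the 13386 genes tested were, 1 member had an unadjusted p under 0.05, and DESeq2 called 1, Ciita (adjusted p = 0.0259), where 1.56% of genes were. Without KO replicate 6, Ciita was at -1.15 ± 0.30 (adjusted p = 0.0924), and without that replicate and KO LPS+CCM replicate 5 at -0.98 ± 0.28 (adjusted p = 0.0942). The other 6 members had log2 fold changes from -0.10 (H2-Aa) to 0.05 (H2-DMa), with standard errors of 0.20 to 0.29. Without replicate 6 they ran from -0.06 (H2-DMb1) to 0.08 (H2-Eb1), and without that replicate and KO LPS+CCM replicate 5 from -0.15 (Cd74) to 0.01 (H2-DMa).

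In KO cells the LPS+CCM levels of the other members ranged widely. H2-Ab1 ran from 204 to 614 CPM (median 271), H2-Aa from 146 to 267 (median 183) and H2-Eb1 from 110 to 230 (median 133). Cd74 ran from 750 to 1861 CPM (median 917), H2-DMb1 from 44.9 to 123 (median 54.0) and H2-DMa from 26.5 to 61.5 (median 32.6). Replicate 6 was highest for all 6, and each range overlapped that with LPS alone.

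Relative to its set, Ciita was also lowest with LPS+CCM in WT cells. Ciita counts per 100 counts of H2-Aa, H2-Ab1, H2-Eb1 and Cd74 together were 0.717 to 0.864 in WT vehicle libraries, 0.628 to 0.953 with LPS and 0.261 to 0.578 with LPS+CCM. The ranges with vehicle and LPS overlapped, and all 3 WT LPS+CCM libraries were below both. In KO replicates 1 to 5 it was 0.530 to 0.909 with LPS. With LPS+CCM it was 0.304 to 0.630 in KO replicates 1 to 4, which overlapped the LPS range through replicate 3. In KO LPS+CCM replicate 5, set apart above for its length pattern, it was 0.128, and Ciita has a far longer gene model than the other 4 genes. In KO replicate 6 it was 0.0956 to 0.232 under all treatments.

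Whether CCM acted differently with and without LPS was tested as an interaction. For Ciita in WT cells the effect of CCM was 0.89 ± 0.31 lower on the log2 scale with LPS than without, which edgeR did not call (adjusted p = 0.192), where 2.09% of the 14747 genes tested were called. It was called without the filter on low counts (adjusted p = 0.0118), and DESeq2 gave no adjusted p. The other 6 members had interactions of 0.03 to 0.21, with adjusted p from 0.765 to 0.964. Among all 7 members, 1 had an unadjusted p under 0.05 in edgeR and in DESeq2. In KO cells the Ciita interaction was -0.92 ± 0.40 (adjusted p = 1), where 0.00685% of genes were called, and those of the other members were 0.11 to 0.35. Without replicate 6 the Ciita interaction was -0.94 ± 0.36 (adjusted p = 0.311) and the others 0.13 to 0.39. Without KO LPS+CCM replicate 5 as well, Ciita was at -0.79 ± 0.33 (adjusted p = 0.394) and the others at 0.03 to 0.18. There too 1 member had an unadjusted p under 0.05 in edgeR and in DESeq2, and neither called one.

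Genotype was compared at the same treatment. With vehicle, KO cells had fitted levels above WT cells for all 7 members, by 0.07 (Ciita) to 0.47 (H2-Ab1) on the log2 scale, but no member was called by edgeR or DESeq2 or had an unadjusted p under 0.05 in either. The share of genes called was 0%, with 118 of 14385 at an unadjusted p under 0.05 and 1 called by DESeq2. For the 6 short genes the difference rested largely on replicate 6: without it H2-Ab1 was at 0.13 in place of 0.47, Cd74 at 0.05 in place of 0.37, H2-Eb1 at 0.19 in place of 0.41, H2-Aa at 0.11 in place of 0.26, H2-DMa at -0.01 in place of 0.27 and H2-DMb1 at 0.00 in place of 0.27. Ciita went the other way, to 0.16 in place of 0.07.

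With LPS, the KO against WT differences ran from -0.14 for Ciita to 0.33 for H2-Ab1 and H2-Eb1, and none was called by either tool or had an unadjusted p under 0.05 (0% of genes called by edgeR, 105 of 13794 at an unadjusted p under 0.05, 2 called by DESeq2). Without replicate 6 they ran from -0.06 for H2-DMb1 to 0.16 for H2-Eb1. The genotypes' responses were also compared directly. The LPS response of H2-Ab1 differed by -0.12 ± 0.47 between KO and WT, and the CCM response of Ciita under LPS by 0.04 ± 0.50. No member was called in either interaction, where 0% of genes were by edgeR or DESeq2 and 112 and 72 genes had an unadjusted p under 0.05 in edgeR. Without replicate 6 they were -0.06 ± 0.19 and 0.06 ± 0.46, and without KO LPS+CCM replicate 5 as well the second was 0.21 ± 0.42.

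The genes around the members were read from lists of the pathway. Their counts stand beside shares over all genes of 30.6% called higher and 32.4% lower with LPS in WT, 22.4% and 24.7% with LPS in KO (34.1% and 37.5% with the replicate block, which applies there), and 4.15% and 7.78% with LPS+CCM against LPS in WT. Of the 5 other class II genes of the H2 region, 3 passed the filter, and all 5 were low. In WT, H2-DMb2, the paralog of H2-DMb1, was at 1.40 to 1.98 CPM with vehicle and fell with LPS (log2 fold change -0.86 ± 0.28, adjusted p = 0.0205), the opposite direction to H2-DMb1. H2-Oa, the alpha chain of the H2-DM inhibitor H2-O, rose from 0.397 to 0.448 CPM to 1.12 to 1.89 CPM (1.79 ± 0.32, adjusted p = 0.000784). H2-Ob, its beta chain, was at 0.551 to 0.706 CPM with vehicle, with 0.68 ± 0.30 (adjusted p = 0.073). H2-Eb2 was at 0.1102 to 0.239 CPM with vehicle, and the I-E alpha pseudogene H2-Ea-ps had 0 counts in every WT library. In KO, H2-Oa (2.36) and H2-Ob (0.64) were called higher and H2-DMb2 (-0.87) lower.

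Among the 11 genes of endosomal proteolysis and invariant chain removal, 3 rose and 7 fell with LPS in WT, with a median log2 fold change of -0.31, and the 3 that rose are near the share of all genes called higher. Ctsc, which activates other proteases (2.59 ± 0.07), Sppl2a, the intramembrane protease that clears the last invariant chain fragment (2.12 ± 0.07), and Ctsz (0.96 ± 0.07) rose. In KO, 3 rose and 2 fell, and 3 and 8 with the block. With LPS+CCM against LPS in WT none of the 11 was called, at a median of -0.11.

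The 10 genes of the promoter complex gave 5 higher and 2 lower calls with LPS in WT, near the share of all genes called in either direction, with Rfx5, the DNA-binding subunit on the X box, at 1.36 ± 0.11 and the acetyltransferase Kat2b at 1.42 ± 0.08, whereas Nfya, a Y box subunit, fell by 0.49. The balance turned with library totals alone, to 2 higher and 6 lower. With LPS+CCM against LPS in WT, Kat2b was lower (-0.26) and Nfya higher (0.24), and the other 8 were not called. In KO, LPS gave 2 higher and 2 lower calls, and 5 and 3 with the block.

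Of the 13 genes of signalling to Ciita, 11 rose and 1 fell with LPS in WT, with a median of 1.17. The cytokine-signalling kinase Jak2 (3.59 ± 0.08) and the transcription factor Irf1 (3.26 ± 0.07) rose. In KO, 8 of the 12 tested rose and 1 fell, and 10 and 2 with the block. With LPS+CCM against LPS in WT, 5 of the 13 fell and 1 rose, with Irf1 at -0.82 ± 0.10 (adjusted p = 0.000401) and Il10 at -0.74 ± 0.11 (0.00169). Irf1, known as a direct activator of the interferon-inducible Ciita promoter, was lower in the same comparison as Ciita, and a link was not tested. Its interaction of CCM with LPS in WT was called (-0.60 ± 0.13, adjusted p = 0.031), unlike that of Ciita.

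Surface class II is cleared by the ubiquitin ligase March1, which Cd83 opposes. Of the 4 genes of turnover, March1 (2.68 ± 0.08) and Tmem127 (0.35 ± 0.06) rose and March8 fell by 0.37 with LPS in WT. Tmem127 turned to a lower value with library totals alone (-0.06). With LPS+CCM in WT, Cd83 was lower (-0.98 ± 0.11, adjusted p = 0.000391) and March1 higher (0.24 ± 0.07, adjusted p = 0.0372) than with LPS. The Cd83 interaction was called in WT (-0.87 ± 0.16, adjusted p = 0.012). In KO, 2 of the 4 rose with LPS and none fell, whereas 2 fell with the block and 1 without replicate 6.

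Set beside these, the 16 genes of MHC class I presentation had larger differences. With LPS in WT, 14 rose and 2 fell, at a median log2 fold change of 2.27 against 0.44 for the class II members, with the peptide transporter Tap1 at 4.15 ± 0.07 and the class I transactivator Nlrc5, a relative of Ciita, at 3.78 ± 0.07. In KO 13 rose and 1 fell, and 14 and 2 with the block. With LPS+CCM against LPS in WT, 12 of the 16 fell and none rose (median -0.30), with Tap1 at -0.50 ± 0.05 and Nlrc5 at -0.45 ± 0.06. Of the interferon regulatory factors, 8 of 9 were tested, 5 rose and 1 fell with LPS in WT, led by Irf7 (6.15 ± 0.10), and 2 fell with LPS+CCM, Irf1 and Irf7 (-0.45 ± 0.05). Without the block, edgeR called no gene of these lists over all libraries with CCM alone in WT or KO, with LPS+CCM against LPS in KO or between genotypes. With the block, which applies to CCM in KO, the protease gene Ctsc (-0.20) and the proteasome activator gene Psme2 (-0.24) were called lower there, and Psme2 (-0.29) also without replicate 6 and without the block.

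**Figure D5:**
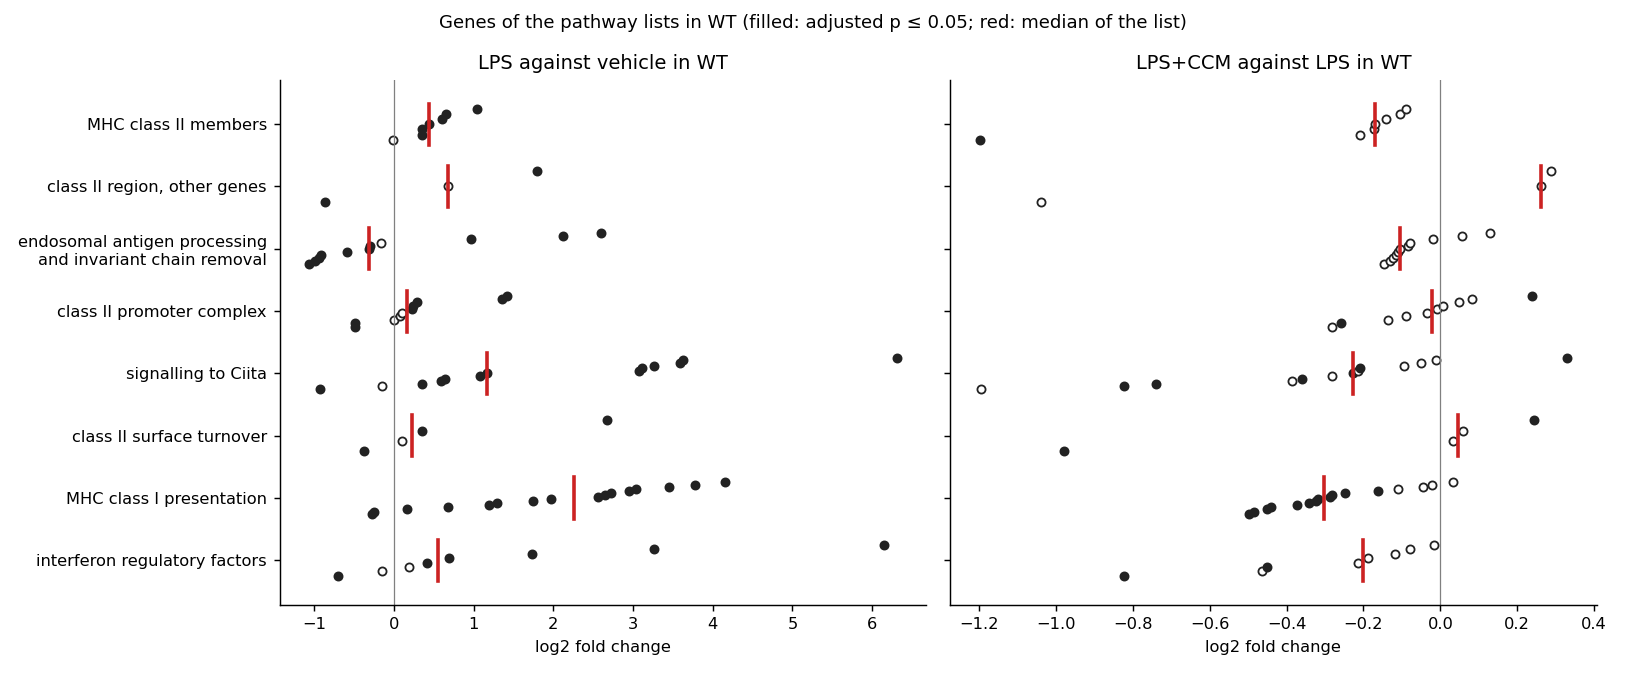
Fitted log2 fold change of each gene of the pathway lists in WT (horizontal axis), one row per list, with filled points for an adjusted p of at most 0.05 and a red mark at the median of the list. With LPS against vehicle the class I list centres on 2.27 and the class II members on 0.44, and with LPS+CCM against LPS the class I list centres on -0.30 while Ciita, at -1.20, is the farthest of the class II members.

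Among the genes whose log2 CPM followed the mean of H2-Aa, H2-Ab1, H2-Eb1 and Cd74 most closely over all 36 libraries were Aif1 (Pearson r = 0.944), Lst1 (0.935), Gm26917 (0.933) and mt-Rnr1 (0.932). After each group's mean was subtracted they were Ly6e (0.955), Gm26917 (0.941), Apoe (0.928), Tmed1 (0.918) and Bst2 (0.917). These likenesses are descriptions, and the libraries they cover include those with the length pattern above. Over the 31 libraries without those that stand apart, a choice made after the data were seen, the leading genes were mt-Rnr1 (0.946), Ly6a (0.925), mt-Rnr2 (0.924), Tmem176b (0.921) and Gm26917 (0.917). With group means subtracted over these 31 libraries they were Ppp1r15a (0.870), mt-Rnr2 (0.840), Zfp703 (0.818), Ly6e (0.813) and Gm15728 (0.809). Of the group-subtracted leaders over 36 libraries, Ly6e alone stayed among them. Over the same 31 libraries H2-Aa and H2-Eb1 followed each other at r = 0.980, which was 0.974 once group means were subtracted. H2-DMb1 followed the mean of the 4 genes at 0.814, H2-DMa at 0.428 and Ciita at 0.342. With group means subtracted the order turned, to 0.6245 for H2-DMa, 0.320 for Ciita and 0.290 for H2-DMb1.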

How the data were processed

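Per the labels and the study's methods, poly(A) RNA was sequenced as read pairs, trimmed with fastp and aligned to mm10 with HISAT2 2.0.5, and the deposited values are raw gene counts that the authors made with featureCounts 1.5.0-p3. The strand setting is not given in the sources used here. Gene model lengths came from the same table, which pairs them with each gene; the deposited counts are not normalised. Of 54532 genes, 23675 had 0 counts in all 36 libraries. No libraries of a group agreed within sampling noise (lowest chi-square per degree of freedom 4.08).

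The 12 comparisons were each fitted on their own groups over all genes with edgeR 4.0.16 in R 4.3.3 (filterByExpr, TMM factors, estimateDisp, quasi-likelihood test, Benjamini-Hochberg adjustment over all genes tested, called at an adjusted p of at most 0.05). This follows the study's pairwise design, for which the authors used DESeq2. The standard error is the log2 fold change divided by the square root of F. Levels are CPM with TMM factors over the 36 libraries, and log2 CPM used a prior count of 2. Tables and figures were made with Python 3.11.15, pandas 2.3.3 and matplotlib 3.10.9, and the fits were tested on simulated data. Alternatives were DESeq2 1.42.0, RLE size factors, library totals alone, no filter on low counts (minimum count 1), the replicate number as a block, and each library or KO replicate left out. Leaving out KO replicate 6 together with KO LPS+CCM replicate 5, and the latter alone, was chosen after seeing the data.

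Same-numbered libraries were taken as paired where the deviations from group means of every pair correlated above 0.1. This held for LPS in KO, for CCM in KO and for LPS+CCM against LPS in WT (correlations in the report), and not for the other comparisons. Other numbers had a median of -0.132 in the last. Their median was 0.173 for LPS in KO and 0.223 for CCM in KO, so there the rule does not by itself show pairing. The 7 members are named throughout; from each list at most the 3 genes with the smallest adjusted p per comparison were named, at 1 CPM or more on average, and the other class II genes whatever their call, while Nlrc5, Ccr7, Clec10a, Psme2 and Ctsc with CCM were named after their values were seen. The members and lists were chosen with earlier results of these data known. Values of a few genes of these lists are not reported here.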

Additional observations from a re-analysis of the deposited data

Results flagged for a closer look

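Values were examined for a library far from the others in the 28 groups of 6 KO libraries (7 genes under 4 treatments), by the gap of the highest or lowest library to its neighbour over the group's range, against Dixon's critical value. Chance flags about 1 in 20 such groups. KO replicate 6 was the high library in 16 of them. For H2-Ab1 it stood at 342 CPM with vehicle, 355 with CCM and 573 with LPS. For H2-Eb1 it stood at 195 CPM with vehicle and 160.4 with CCM. For H2-DMa it was at 67.7 CPM in the vehicle, 71.3 in the CCM, 59.96 in the LPS and 61.5 CPM in the LPS+CCM group. For H2-DMb1 it was at 97.4, 94.3, 110.2 and 123 CPM in these groups, in that order. For Cd74 it was at 1504 CPM with vehicle, 1479 with CCM and 1908 with LPS. These are short genes, which KO replicate 6 over-represented by 1.67 to 1.99 (log2, short minus long genes). H2-Ab1 stood above the median of genes of like length, at 1.36 against 0.81 with vehicle, 1.62 against 0.89 with CCM and 1.09 against 0.81 with LPS (log2, from other KO libraries). H2-Eb1 stood below it, at 0.95 against 1.17 with vehicle and 0.98 against 1.27 with CCM. The source of these gaps was not tested. The remaining case was Ciita in KO LPS+CCM replicate 3, at 9.72 CPM where the other 5 libraries lay between 2.73 and 4.45 CPM.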

How the results depend on the processing

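Over all alternatives that left out libraries, 558 of 609 values kept direction and side of the threshold, 8 lost the call, 5 gained it and 38 changed sign, the last mostly values close to 0. The depth limits Ciita most. The cause of each difference below was not tested.

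With library totals alone, members called numbered 2 for LPS in WT and 0 in KO. The log2 fold changes that turned were H2-Aa (-0.062) and H2-DMb1 (-0.052) for LPS in WT, H2-Aa (-0.049), H2-Eb1 (-0.014) and H2-DMb1 (-0.12) for LPS in KO, H2-DMb1 (0.0089) for LPS+CCM against LPS in KO, and H2-Aa (-0.0056) and Ciita (-0.012) for the genotype by CCM interaction. DESeq2 and RLE size factors each gave 0.024 for H2-DMa with LPS in WT and -0.029 for H2-Aa in the genotype by LPS interaction, and DESeq2 called 1 member for LPS+CCM in KO. With no filter on low counts, 4 members were called for CCM in WT, where 377 of 25725 genes were. This setting also called 3 for LPS+CCM in WT (2099 of 25292 genes) and 1 for the interaction in WT (721 of 27859 genes).

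With the replicate block, 6 members were called for LPS in KO, 2 for CCM in KO and 4 for LPS+CCM in WT, as given in the report. The block also gave 2 calls for CCM in WT, H2-Aa (adjusted p = 0.027) and H2-Eb1 (0.0394), where 255 of 14024 genes were called. It gave 1 for LPS+CCM in KO, Ciita (0.00189), where 777 of 13386 genes were. In these comparisons same-numbered libraries correlated at 0.0512 to 0.466 and at -0.100 to 0.808, and so were not taken as paired. In LPS with WT cells the correlations were 0.0473 to 0.174. H2-Ab1 turned to -0.0071 for LPS+CCM in KO, and the block changed no other call of a member. Of the pathway lists, the block gave lower calls for LPS+CCM in KO to 4 signalling, 3 class I, 2 interferon regulatory factor, 1 promoter complex and 1 turnover genes. Over all genes 554 of 13386 were called lower there. For CCM in WT it gave a lower call to 1 class I gene, where 157 of 14024 genes had one. Without the block each of these list counts was 0.

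Leaving out libraries gave 0 to 4 members called for LPS in KO, and 1 to 3 for LPS+CCM in WT. H2-DMa ranged from -0.074 to 0.042 with LPS in WT. For LPS+CCM in WT, H2-Aa ranged from -0.37 to 0.0047, H2-Eb1 from -0.30 to 0.067 and H2-DMa from -0.26 to 0.023. For LPS+CCM in KO, H2-Ab1 ranged from -0.13 to 0.073, H2-Eb1 from -0.13 to 0.084, H2-DMb1 from -0.14 to 0.032 and Cd74 from -0.15 to 0.023. In the WT interaction, H2-Ab1 ranged from -0.045 to 0.22, H2-DMa from -0.025 to 0.11, H2-DMb1 from -0.028 to 0.083 and Cd74 from -0.051 to 0.15. Between genotypes with vehicle, H2-DMa ranged from -0.0082 to 0.36 and Ciita from -0.058 to 0.16. With LPS, H2-DMa ranged from -0.051 to 0.24, H2-DMb1 from -0.060 to 0.22 and Ciita from -0.30 to 0.022. In the genotype by LPS interaction, H2-Aa ranged from -0.028 to 0.062 and H2-DMa from -0.12 to 0.012, and in the genotype by CCM interaction H2-Aa from -0.0097 to 0.21, H2-Eb1 from -0.039 to 0.27 and Ciita from -0.15 to 0.22.

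Counts of genes called moved by over 1.5 times as follows. For LPS in KO it was 6433, and 9774 with the block. For CCM in WT it was 8, against 241 in DESeq2, 255 with the block and 377 with no filter, and in KO it was 0, against 42 in DESeq2, 429 with the block and 141 without replicate 6. For LPS+CCM against LPS it was 1621 in WT, and 3220 with the block, and 15 in KO, against 200 in DESeq2, 777 with the block and 170 without replicate 6. For the interaction of LPS and CCM it was 308 in WT, against 688 in DESeq2, 548 with the block and 721 with no filter, and 1 in KO, against 12 in DESeq2, 81 with the block, 10 without replicate 6, and 0 with library totals alone or no filter. Between genotypes DESeq2 called 1 gene with vehicle and 2 with LPS, where edgeR called 0.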

Other observations

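The ubiquitin ligase and the transactivator of class II moved apart in WT cells with LPS+CCM against LPS, March1 being higher (0.24) where Ciita was lower (-1.20). In KO cells this was not seen: all 4 turnover genes, March1 included, had fitted log2 fold changes below 0, and none was called without the block. H2-Oa had a log2 fold change of -1.04 ± 0.35 in the WT comparison (edgeR adjusted p = 0.0827), with levels of 0.523 to 0.989 CPM against 1.12 to 1.89 CPM with LPS. H2-DMb1 counts were higher than those of H2-DMb2 in every library, and the H2-DMa to H2-DMb1 count ratio was 0.570 to 0.762 in the 16 other libraries without LPS and 0.460 to 0.616 in the 15 with LPS.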
